A study of Caenorhabditis elegans with 2 samples.

Results

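The tRNA genes of the Caenorhabditis elegans X chromosome were examined for peaks of UNC-62, a homeodomain protein of the Meis family that acts with Hox and Pbx-type partners during development. The members are all genes that the Ensembl annotation of the WBcel235 (ce11) assembly gives the biotype tRNA on X. There were 276 of them, among 612 nuclear tRNA genes and 46890 annotated nuclear genes. X therefore held 45.1% of the nuclear tRNA genes and 17.7% of the nuclear sequence, with 15.6 tRNA genes per Mb, against 3.73 to 4.64 per Mb on the autosomes.

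The study mapped UNC-62 by chromatin immunoprecipitation with sequencing (ChIP-seq) in whole organisms collected as embryos of mixed stages, males and females pooled. There was 1 group, sampled as 2 biological replicates, and the labels give age as unknown. All animals were of strain OP600, which carries the unc119(ed3) mutation and the integrated transgene wgIs600, an unc-62 fusion with TY1, EGFP and FLAG tags together with an unc119 copy. All values thus describe a tagged copy in 1 transgenic line, in a mixture of all embryonic tissues, and no control library was analysed here.

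Transfer RNAs carry amino acids to the ribosome. Their genes are short and are transcribed by RNA polymerase III from promoter elements inside the transcribed sequence, the A box near the start and the B box in the T arm, where the factor TFIIIC binds and brings TFIIIB to the DNA just upstream. Transcription ends at a run of T just after the gene. Many tRNA genes of C. elegans exist as identical copies at separate places, some between genes and some inside introns of protein-coding genes, and the X chromosome is known to be rich in them.

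Each member was compared with the summits of the authors' IDR list, the peaks left by their irreproducible discovery rate procedure, which compares the ranks of peaks between replicates. A summit is the base where a peak is highest. That list holds 2754 peaks, 644 of them on X. A member was called near when a summit lay within 500 bp of its annotated start in either direction. The 2754 strongest peaks of the authors' list from both replicates pooled gave the same counts, 644 peaks on X and 57 near members. Being near thus also marks a cutoff in pooled signal, and a member that is not near can have a weaker pooled peak. Signal is the authors' own value per peak and is used only to rank peaks within a list. Percentages are given with exact Clopper-Pearson 95% intervals, and differences with Newcombe 95% intervals. These intervals cover counting error over genes, not the spread between embryo cultures. The number of reads per library is unknown here.

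The sequences that follow are the annotated genes of the tRNA genes at the strongest summits and the member farthest from any summit. They were read from the RefSeq genome of WBcel235, 5′ to 3′ on the sense strand, with GTTCGA, the core of the B box, in capitals. The Pro gene in this set reads GTTCAA at the same place and has no capitals. C04A11.t1 is longer than the others.
C33G3.t2 (tRNA-Lys, chrX:14063946-14064018, minus strand): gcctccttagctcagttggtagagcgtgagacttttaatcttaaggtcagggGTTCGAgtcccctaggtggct
R04D3.t2 (tRNA-Val, chrX:13307034-13307106, plus strand): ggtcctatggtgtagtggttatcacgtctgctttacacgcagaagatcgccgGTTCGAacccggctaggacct
F46G11.t2 (tRNA-Pro, chrX:5801211-5801282, minus strand): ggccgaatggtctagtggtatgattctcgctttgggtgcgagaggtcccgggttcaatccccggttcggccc
C04A11.t1 (tRNA-Leu, chrX:13665555-13665673, plus strand): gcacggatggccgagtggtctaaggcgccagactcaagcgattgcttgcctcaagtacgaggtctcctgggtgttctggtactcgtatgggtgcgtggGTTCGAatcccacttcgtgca
C18A11.t2 (tRNA-Arg, chrX:8036685-8036757, minus strand): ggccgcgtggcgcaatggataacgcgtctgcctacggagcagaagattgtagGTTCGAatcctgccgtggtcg
Y75D11A.t2 (tRNA-Arg, farthest from any summit, chrX:1764254-1764327, minus strand): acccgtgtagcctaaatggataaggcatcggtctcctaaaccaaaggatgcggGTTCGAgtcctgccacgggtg

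Of the 276 X tRNA genes, 57 had a summit within 500 bp (20.7%, 16.0 to 25.9%) and 219 did not. The near members shared 49 distinct summits, of which 41 lay near 1 tRNA gene and 8 near 2. When genes within 500 bp of each other were merged into 218 loci, 50 loci were near (22.9%, 17.5 to 29.1%). The share was higher than that of the protein-coding starts of X, of which 182 of 2731 were near (6.66%, 5.76 to 7.67%), and than the 4.66% of all 19973 nuclear protein-coding starts, with intervals that do not overlap. It was also higher than the share of positions on X that lie within 500 bp of a summit, 3.56%, which over 276 genes would give 9.82. Outside protein-coding exons 4.14% of X positions lay that close, which would give 11.4 genes.

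The position of the summits along X was also shifted as a block, with the end joined to the beginning, in 177 steps of 100 kb. The deposited positions put 57 X tRNA genes near a summit, and the shifted positions between 1 and 24, with a median of 10. For X protein-coding starts the deposited positions gave 182 and the shifted ones 72 to 118, with a median of 96. These counts describe the spacing of genes and summits on 1 chromosome and carry no p-value.

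Autosomal tRNA genes had a smaller share, 36 of 336 (10.7%, 7.62 to 14.5%). The difference, X minus autosomes, was 9.94 percentage points (4.18 to 15.9). Among the autosomes the share ran between 4 of 66 on chromosome I and 10 of 71 on chromosome IV, or 6.06% and 14.1%. Summits were also denser on X, at 36.4 per Mb, against 18.5 to 31.7 per Mb on the autosomes. Set against the positions that lie near a summit, X tRNA genes were near 5.81 times as often as X positions, and autosomal tRNA genes 4.32 times as often as autosomal positions (2.48%). Among the 1377 strongest IDR peaks the counts were 26 of 276 X tRNA genes (9.42%) and 8 of 336 autosomal ones (2.38%). Those peaks covered 1.79% of X positions and put 3.19% of X protein-coding starts near. The share of autosomal positions is not given for them, so this gap is not set against the density of summits.

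Other non-coding genes of X are given for comparison, with no test of the differences. The interval of the snoRNA genes overlaps that of the X tRNA genes. Among snoRNA genes, which guide the modification of other RNAs, 3 of 33 were near on X (9.09%, 1.92 to 24.3%), and 69 of 313 on the autosomes (22.0%, 17.6 to 27.1%). Among X miRNA genes 4 of 74 were near (5.41%, 1.49 to 13.3%), and among genes of the annotation's general ncRNA class 305 of 2520 (12.1%, 10.9 to 13.4%). No X pseudogene of 178 was near, which allows a share of up to 2.05%.

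**Figure D1:**
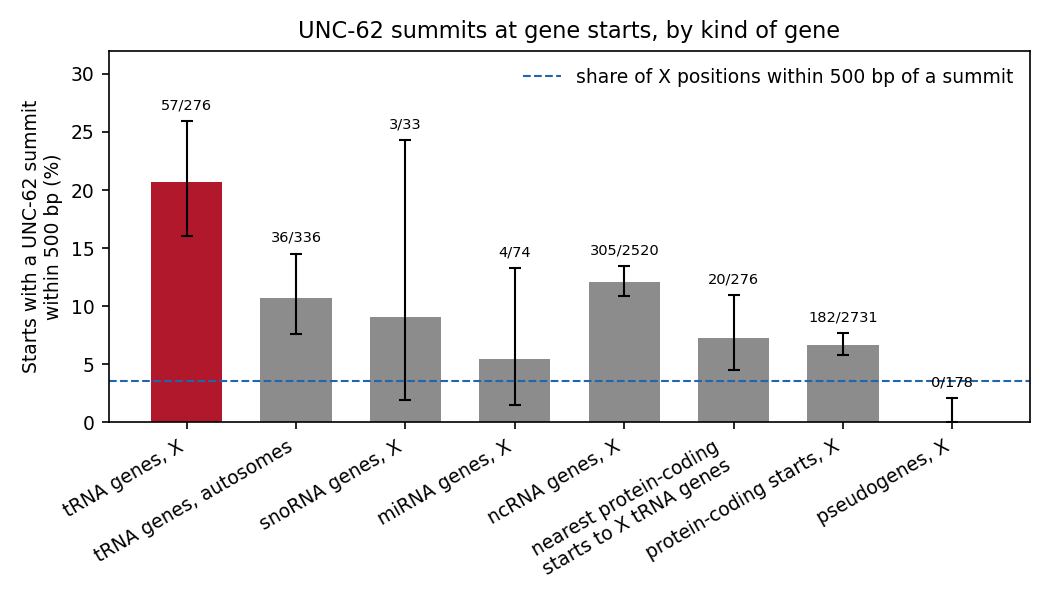
Share of gene starts with a UNC-62 summit within 500 bp, in percent, by kind of gene, with the counts above the bars, exact 95% intervals as error bars and the share of X positions (3.56%) as a dashed line. X tRNA genes stand at 57 of 276, autosomal tRNA genes at 36 of 336 and X protein-coding starts at 182 of 2731.

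The summits were concentrated close to the tRNA starts. A summit was within 50 bp of the start for 29 members, within 100 bp for 47, within 250 bp for 52, within 1000 bp for 66 and within 2000 bp for 80. Wider windows cover more of X, and the share of X positions is given for 500 bp only. The share of X tRNA genes exceeded that of their nearest protein-coding starts by 13.8 points at 250 bp and 9.78 at 1000 bp. Thus 47 of the 57 near members (82.5%) were within 100 bp, against 36 of the 182 near protein-coding starts of X (19.8%). Taking for each of the 49 summits only its closest tRNA gene, 45 were within 100 bp (91.8%), at a median distance of 43 bp. Of these summits 30 lay inside the annotated gene, 13 upstream and 6 downstream, and the median position was 20 bp after the start. At protein-coding starts of X the summits lay mostly upstream, with the most in the 50 bp that begin 300 bp before the start, at 23 summits, and 6 in the first 50 bp after it, a summit counted once for each start. In the first 50 bp after X tRNA starts there were 18. Per 100 starts that is 6.52 for X tRNA genes and 0.220 for X protein-coding genes. The median distance to the nearest summit was 7366 bp for all 276 members and 11503 bp for X protein-coding starts.

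**Figure D2:**
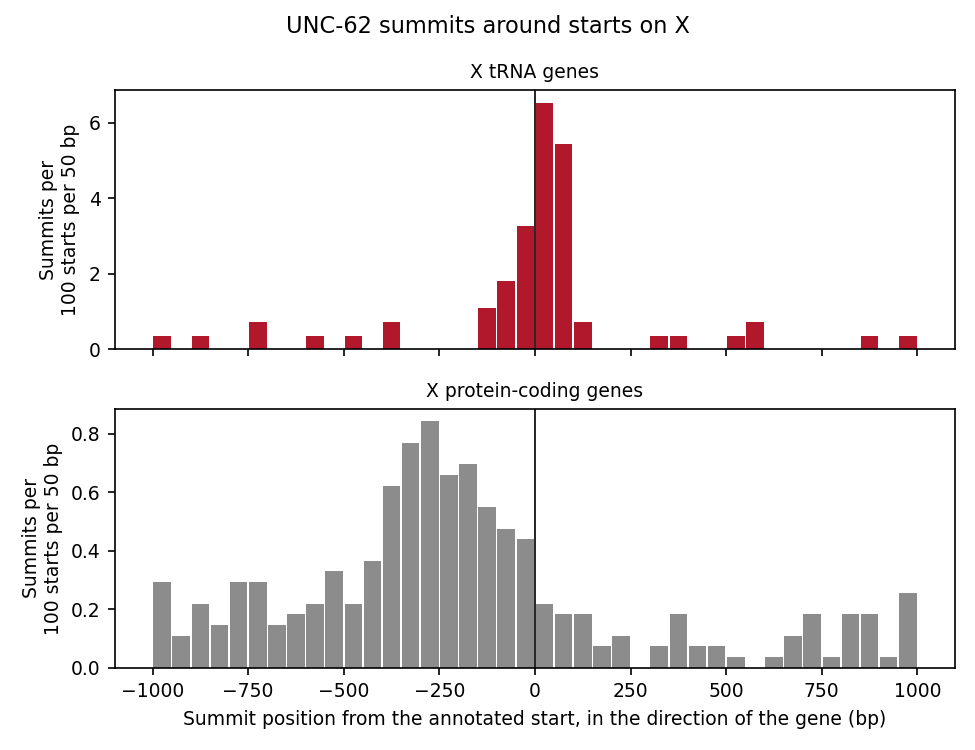
Summits per 100 starts in windows of 50 bp, by position from the annotated start in the direction of the gene, for X tRNA genes above and X protein-coding genes below, each panel with its own vertical scale. The tRNA panel peaks in the first 50 bp of the gene at 6.52 summits per 100 starts, and the protein-coding panel upstream of the start at 0.842.

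The strongest summit at an X tRNA gene was that of C33G3.t2, a tRNA-Lys gene between genes whose nearest protein-coding start, lgc-21, is 3966 bp away. Its signal was 208.4, rank 230 in the IDR list, with the summit 31 bp upstream of the start. Its peak was rank 205 in replicate 1 and rank 355 in replicate 2, so it was among the stronger peaks of both. R04D3.t2, a tRNA-Val gene, followed with a signal of 170.2 at 38 bp after the start, and its peak ranked 588 in replicate 1 and 249 in replicate 2. The divergent tRNA-Pro genes F46G11.t2 and F46G11.t1 shared 1 summit, 74 bp upstream of F46G11.t2 and 116 bp upstream of F46G11.t1. That peak had a signal of 141.9 and ranked 558 in replicate 1 and 680 in replicate 2. C04A11.t1, a tRNA-Leu gene, had a signal of 135.1 with its summit 27 bp after the start, at rank 531 in replicate 1 and rank 1175 in replicate 2.

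The next strongest summits were spread over other amino acids. C18A11.t2, a tRNA-Arg gene, was credited with a signal of 130.9, but the summit lay 370 bp after its start and so beyond the gene. F38G1.t2, a tRNA-Asp gene in an intron of egl-17 on the opposite strand, had a signal of 129.9 at 11 bp after the start; egl-17 encodes a fibroblast growth factor, and its own start is 254 bp from that of the tRNA gene. C42D8.t1 (tRNA-Ile) followed with 129.8 at 76 bp. M02F4.t2 (tRNA-Glu) and M02F4.t1 (tRNA-Gly) shared a summit of signal 126.2 that lay between their divergent starts, 72 bp from the first and 45 bp from the second. W03G11.t1 (tRNA-Lys) had 122.1 at 16 bp after the start, and ZK899.t1 (tRNA-Pro) 121.5 at 25 bp upstream. C28G1.t1 (tRNA-Glu) had 118.6 at 7 bp upstream, and R11.t1 and R11.t2 (tRNA-Tyr) shared a summit of 118.3, at 70 bp after the start of R11.t1 and 471 bp upstream of R11.t2.

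At the edge of the 500 bp window, the members just inside were R11.t2 at 471 bp, F41D9.t2 at 386 bp and C18A11.t2 at 370 bp. Each of these has another tRNA gene within 2 kb. For R11.t2 and F41D9.t2 the summit lay closer to a neighbour, at 70 bp from R11.t1 and 24 bp from F41D9.t1. For C18A11.t2 it did not, as the neighbour C18A11.t1 was 1120 bp from the summit. Just outside were F59C12.t1 at 548 bp, K09C8.t1 at 572 bp and F22F1.t7 at 588 bp. Only 10 of the 57 near members lay at more than 100 bp.

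Summits at tRNA genes were of middling strength for X. Their signal ran between 60.6 and 208.4 with a median of 86.3, and the other 595 X summits ran between 59.9 and 485 with a median of 95.2. Among the 1377 strongest IDR peaks were 21 of the 49 (42.9%) and 300 of the other 595 (50.4%). The best of the 49 stood at rank 42 among X peaks.

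Each of the 49 peaks was overlapped by a peak in both replicate lists, as were 591 of the other 595 X peaks, and 4 of those were overlapped in 1 replicate. In replicate 1 the overlapping peaks ranked between 205 and 3278 of 21749, with a median of 1498, against a median of 1324 for the other X summits. In replicate 2 they ranked between 249 and 5223 of 30000, with a median of 1719, against 1368. Among the 2754 strongest peaks of both replicates were 37 of the 49 (75.5%) and 420 of the other 595 (70.6%). The lowest ranks in replicate 2 were those of C02B4.t2 (tRNA-Tyr) at 5223, F42D1.t1 at 4866 and F14B8.t1 (tRNA-Leu) at 4198, which in replicate 1 ranked 1592, 2260 and 2244.

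**Figure D3:**
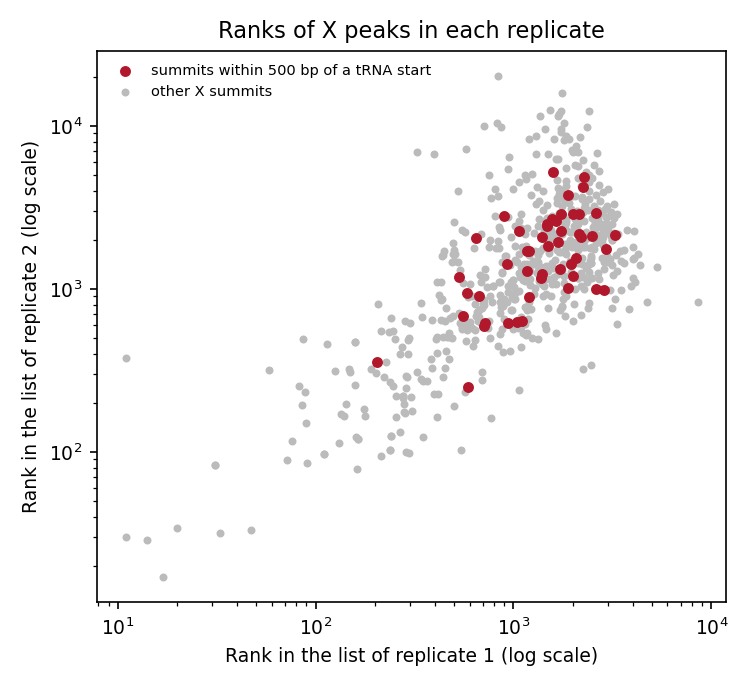
Rank of the overlapping peak in the replicate 1 list against that in the replicate 2 list, on log scales where 1 is the strongest, for summits within 500 bp of an X tRNA start and for other X summits. The 49 summits at tRNA genes sit between ranks 205 and 3278 in replicate 1 and between 249 and 5223 in replicate 2, inside the cloud of the other 595.

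With each replicate's own 2754 strongest peaks, 62 X tRNA genes were near in replicate 1 (22.5%) and 54 in replicate 2 (19.6%), against 34 and 28 of 336 autosomal tRNA genes. The whole pooled list, which also holds background peaks that the authors kept as input for IDR, covered 18.6% of X positions and put 150 of the 276 X tRNA genes near (54.3%), against 157 of 336 autosomal tRNA genes (46.7%) and 24.2% of X protein-coding starts. In the whole lists the shares of X and autosomal tRNA genes were 60.5% and 55.4% in replicate 1, and 54.7% and 48.5% in replicate 2, smaller gaps than in the IDR list. Those replicate lists covered 21.7% and 31.1% of X positions and put 29.2% and 35.3% of X protein-coding starts near. X tRNA genes were near 5.81 times as often as X positions in the IDR list. That ratio was 2.92 in the whole pooled list, 2.79 in replicate 1 and 1.76 in replicate 2. Of the 219 members with no IDR summit, 93 had such a pooled summit within 500 bp and 53 within 100 bp, at pooled ranks between 2767 and 16690 with a median of 5887. For 30 of the 219, both replicate lists had a summit within 100 bp. The other 126 members had no pooled summit within 500 bp. Summits within 100 bp of a tRNA start made up 19 of 321 X summits among the 1377 strongest IDR peaks (5.92%) and 26 of 323 among the other IDR peaks (8.05%), and 10 of 1192 (0.839%) in the weakest of the 5 rank bands of the pooled list.

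Members that stood alone were near more often than members with a tRNA neighbour. Of 125 genes with no other tRNA start within 2 kb, 37 were near (29.6%, 21.8 to 38.4%), and of 151 with 1 or more, 20 were near (13.2%, 8.28 to 19.7%), a difference of 16.4 percentage points (6.70 to 26.0). By the number of tRNA starts within 2 kb, the gene itself included, the counts were 37 of 125 for 1 gene, 16 of 86 for 2 (18.6%), 2 of 29 for 3 (6.90%) and 2 of 36 for 4 or more (5.56%). Genes of 1 group share their surroundings. With genes chained at 2 kb into groups and each group counted once, 37 of 125 single genes and 12 of 58 groups of 2 or more (20.7%, 11.2 to 33.4%) had a near member. That difference was 8.91 points, and its interval, -5.20 to 20.9, spans 0.

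The largest group was the 8 genes F22F1.t2 to F22F1.t9, at chrX:8152546-8156707 on ce11, with tRNA-Ser, tRNA-Asp, tRNA-Met and tRNA-Ile genes. None of the 8 was near, and the nearest summit, of signal 76.3, lay 588 bp upstream of F22F1.t7 and 4678 bp from F22F1.t9. In the pooled list F22F1.t5 had a summit at 32 bp (rank 4443) and F22F1.t6 at 68 bp (rank 2858), ranks beyond the 2754 peaks of the IDR list.

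Genes in introns and genes between genes were near at like rates. Of 95 members in introns of 67 host genes, 20 were near (21.1%, 13.4 to 30.6%), and of 180 intergenic members 36 (20%, 14.4 to 26.6%), a difference of 1.05 points (-8.45 to 11.7). The interval leaves room for a difference of several points either way. The remaining member, C28G1.t1, lies in an exon of C28G1.2 on the same strand, with the coding gene's start 97 bp away. Within introns, 11 of 45 on the strand opposite to the host were near (24.4%) and 9 of 50 on the same strand (18%). Single and clustered genes differed in the same direction in both settings, at 15 of 50 single and 5 of 45 clustered intronic genes (30% and 11.1%) and 21 of 74 single and 15 of 106 clustered intergenic genes (28.4% and 14.2%).

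The hosts of near intronic members have varied roles. F32A6.t1 (tRNA-Phe) lies in sto-2, a stomatin gene, with a signal of 76.0 at 84 bp. E03E2.t1 (tRNA-Ser) lies in cat-1, the vesicular monoamine transporter gene, with 70.9 at 17 bp. F15G9.t1 and F15G9.t2 (tRNA-Ala) lie in him-4, which encodes the extracellular matrix protein hemicentin, and share a summit of signal 109.2 at 63 bp after the start of F15G9.t1 and 95 bp upstream of F15G9.t2. T06H11.t2 and T06H11.t3 (tRNA-Arg) lie in unc-58, a gene of the TWIK potassium channel family, and share a summit of signal 82.7. For the members in sto-2, cat-1 and him-4 the nearest protein-coding start lay 3930 bp, 2709 bp and at least 5701 bp away. For those in unc-58 it was the host's own start, 504 bp from T06H11.t2 and 139 bp from T06H11.t3, and that start was near a summit too.

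**Figure D4:**
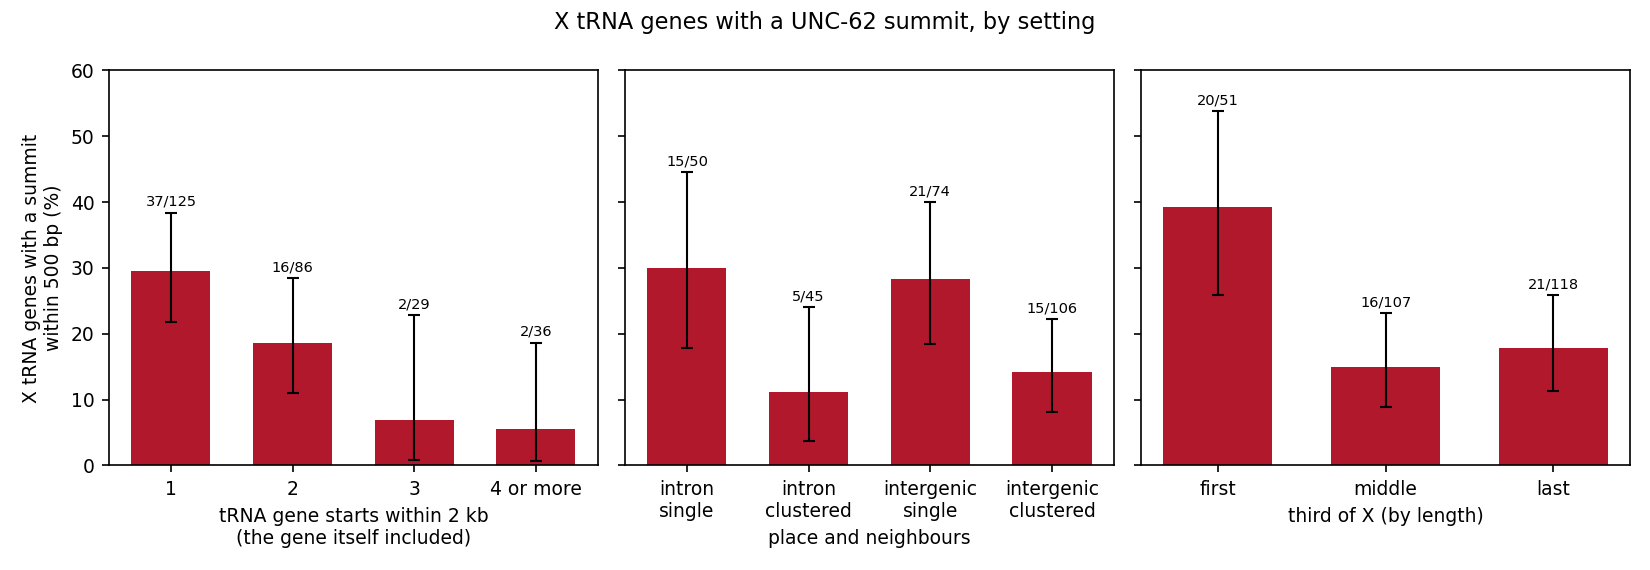
Share of X tRNA genes with a summit within 500 bp, in percent, with counts and exact 95% intervals, by the number of tRNA starts within 2 kb (left), by place and neighbours (middle) and by part of X, cut into 3 equal lengths (right). Single genes stand at 37 of 125, genes with 4 or more at 2 of 36, and the first part of X at 20 of 51.

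Along X, cut into 3 parts of equal length, the share was highest in the first. There 20 of 51 members were near (39.2%, 25.8 to 53.9%), against 16 of 107 in the middle (15%, 8.80 to 23.1%) and 21 of 118 in the last (17.8%, 11.4 to 25.9%). The first part exceeded the rest by 22.8 points (9.44 to 37.1); it was set against the rest after its value was seen. With the 2754 strongest peaks of replicate 2 alone, that is without replicate 1, it was 14.5 points (2.17 to 28.8). Protein-coding starts stood at 6.66%, 6.56% and 6.79% over the same 3 parts, and those parts held 217, 214 and 213 summits. Single genes alone were near in 13 of 27, 9 of 46 and 15 of 52 cases (48.1%, 19.6% and 28.8%), and clustered genes in 7 of 24, 7 of 61 and 6 of 66. In bins of 2 Mb the highest share was in the bin numbered 2, with 10 of 16 (62.5%, 35.4 to 84.8%). That bin was picked after its value was seen, and its interval counts genes that share a summit separately. The first bin had 4 of 17 (23.5%) and the richest bin, number 5, 9 of 71 (12.7%).

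The near members of that second bin included T14F9.t1 and F52H2.t1 (tRNA-Asp), F52H2.t2 (tRNA-Asn), T03G6.t1 and M02F4.t1 (tRNA-Gly), M02F4.t2 (tRNA-Glu), ZK563.t1 (tRNA-Thr), C02F12.t1 (tRNA-Met) and C16B8.t2 and C16B8.t3 (tRNA-Pro). Their signals ran between 70.2 for C02F12.t1 and 126.2 for the M02F4 pair. The M02F4 pair shared a summit, and so did C16B8.t2 and C16B8.t3. The bin also held members at a distance, such as R02E12.t1 (tRNA-Gly), at 17619 bp.

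By amino acid, 273 members had a product in RefSeq, for 20 products, and 19 products had at least 1 near member. The counts were 7 of 27 for tRNA-Arg, 6 of 20 for tRNA-Pro, 5 of 20 for tRNA-Gly, 5 of 17 for tRNA-Leu, 5 of 13 for tRNA-Ala, 4 of 18 for tRNA-Lys and 3 of 8 for tRNA-Tyr. At the lower end were 1 of 15 for tRNA-Gln and 1 of 13 for tRNA-Ile. The exact interval of each of the 20 products included 20.7%, the share of all members. It was 11.1 to 46.3% for tRNA-Arg and 0.169 to 31.95% for tRNA-Gln, so the counts do not separate the products. Genes that shared a summit were counted separately, such as F41D9.t1 and F41D9.t2 (tRNA-Arg) and F46G11.t2 and F46G11.t1 (tRNA-Pro). None of the 5 tRNA-Trp genes was near, which at this number allows a share of up to 52.2%. In the pooled list 3 of the 5 did have a summit at the gene, C48C5.t6 at 10 bp (rank 6116), K06G5.t1 at 16 bp (rank 5105) and C03B1.t1 at 20 bp (rank 3324). The 3 members with no product, C28G1.t5, F47E1.t3 and K02D3.t1, were not near.

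Identical copies of 1 sequence differed in whether a summit of the IDR list was near. The 276 members have 106 distinct sequences, and 33 of these occur at least 2 times on X, in 203 genes. Of those 33 groups, 25 held both near and other members, 1 held near members only and 7 held none. The tRNA-Arg sequence of C18A11.t2, printed above, occurs 10 times, all on X, and 4 of the 10 copies were near. Those copies were C18A11.t2, T06H11.t2, T06H11.t3 and F09B9.t2, with summits at 370, 19, 346 and 115 bp. Most of the other copies had a weaker summit in the pooled list. It lay at 16 bp for C03A3.t1 (rank 5222), 47 bp for T01C1.t1 (rank 10380) and 102 bp for C14F11.t1 (rank 3617). For F09B9.t1 it lay at 177 bp, for K01A12.t3 at 266 bp and for F12D9.t4 at 1390 bp. Of these copies only F12D9.t4 had no pooled summit within 500 bp. The contrast between the copies was therefore smaller in the pooled list than in the IDR list. The tRNA-Pro sequence of F46G11.t2 occurs 24 times in the genome, and 4 of its 13 copies on X were near. The tRNA-Tyr sequence of C02B4.t2 has 6 copies, all on X, with 3 near, and the tRNA-Leu sequence of C04E7.t1 has 9, all on X, with 2 near. Of 8 X copies of the tRNA-His sequence of C06G1.t1, C06G1.t1 alone was near.

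Members whose annotated sequence occurs once in the genome were near in 5 of 55 cases (9.09%, 3.02 to 19.9%), and members with a repeated sequence in 52 of 221 (23.5%, 18.1 to 29.7%). The 5 were C16B8.t2, C16B8.t3, F32A6.t1, C04A11.t1 and M163.t1, and C16B8.t2 and C16B8.t3 shared a summit. Copies were counted as exact matches of the whole gene, so a gene counted once can still have similar copies. How reads that match several copies were placed is not stated in the labels or headers, and its part in the result was not tested. Of the 30 summits inside a gene, 28 lay in a repeated gene sequence and 2 in a unique one. The 101 bases centred on each of the 49 summits occurred once in the genome in all 49 cases.

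Summits at tRNA genes often held the promoter letters of the genes. In the 101 bases centred on the summit, GGTTCGA on either strand was found at 19 of the 49 (38.8%, 25.2 to 53.8%), against 4 of the other 595 X summits (0.672%) and 0.649% of all windows of that length tiled over X. The shorter GTTCGA, which the longer one contains, was at 22 of the 49 (44.9%), 18 of 595 (3.03%) and 3.44% of tiled windows. TGACAG, the core recognised by Meis proteins, was at 4 of the 49 (8.16%, 2.27 to 19.6%), 82 of 595 (13.8%, 11.1 to 16.8%) and 3.87% of tiled windows. These 4 were the summits of F38G1.t2, T14F9.t1, F52H2.t1 and F34H10.t1. GAGAGA was at 11 of the 49 (22.4%), 149 of 595 (25%) and 4.91% of tiled windows. Since 30 of the 49 summits lie inside a tRNA gene, many windows hold tRNA sequence, and a match is a description of the letters, not a binding site.

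Within the genes, the near members and the others held these letters in shares whose intervals overlap. On the sense strand GGTTCGA was in 38 of the 57 near genes (66.7%) and 139 of the other 219 (63.5%), against 0.226% of windows of 73 bases tiled over 1 strand of X. GTTCGA was in 42 of 57 (73.7%) and 158 of 219 (72.1%), against 1.29% of tiled windows. The A box letters TNGCNNAGN were in 27 of 57 (47.4%, 34 to 61.0%) and 86 of 219 (39.3%, 32.8 to 46.1%), against 3.31%. A run of 4 T within 30 bases after the gene was present for 57 of 57 and 216 of 219, against 34.9% of windows of 30 bases. The median GC content was 58.3% in both sets.

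The nearest protein-coding start was less often near a summit than the tRNA gene beside it. Over the 276 members it was near for 20 (7.25%, 4.48 to 11%), a difference, tRNA gene minus nearest protein-coding start, of 13.4 points (7.70 to 19.2). These starts are 179 distinct ones, 12 of them near (6.70%, 3.51 to 11.4%). The interval of the difference treats tRNA genes and nearest starts as independent sets of 276. It ignores their pairing by gene and the starts counted more than once. Of the 57 near members, 9 had a near protein-coding neighbour and 48 did not. Of 62 members with a protein-coding start within 1 kb, 15 were near (24.2%, 14.2 to 36.7%), and of 214 without one, 42 (19.6%, 14.5 to 25.6%), so the intervals overlap. The 49 summits were chosen for lying close to a tRNA start, so their distance to protein-coding starts is a description. A protein-coding start lay within 500 bp of 6 of the 49 (12.2%), against 169 of the other 595 X summits (28.4%).

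A list of 26 protein-coding genes, picked by symbol, was examined, and 25 were found in the annotation. All but cca-1 relate to RNA polymerase III, its factors TFIIIB and TFIIIC, or the cutting, joining, modification and export of tRNA. None of the 25 was within 500 bp of a summit, which allows a share of up to 13.7%. At the 4.66% of all nuclear protein-coding starts 25 genes would give 1.17, so the count is close to that background. The closest were tftc-5 (a TFIIIC subunit) at 3766 bp, rpc-2 (an RNA polymerase III subunit) at 4017 bp and rpac-40 (a subunit shared with RNA polymerase I) at 4483 bp. cca-1, the matched member of the list on X, was at 8240 bp. It encodes a calcium channel subunit and not an enzyme of tRNA processing, so it is among the 25 by its symbol only.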

How the data were processed

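UNC-62 ChIP-seq peaks came from 1 group of 2 biological replicates, made from separate biosamples per the labels. The 4 ce11 lists in narrowPeak format were used (each replicate, pooled, and IDR), and the ce10 lists were not. Per the deposited file descriptions, the authors called peaks against a control and derived the IDR list from the pooled and replicate lists. The labels and headers name no aligner, caller, IDR threshold or library depth. Column 7 is the authors' own signal value per peak, used to rank peaks within a list.

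Summits are column 2 plus column 10, written 1-based. Genes came from Ensembl release 115, and tRNA products and sequences from RefSeq, both WBcel235. Peaks of separate lists were matched by at least 1 bp of overlap. Python 3.11.15, numpy 2.4.6, pandas 2.3.3, scipy 1.17.1 and matplotlib 3.10.9 were used, and the scripts were tested on simulated data. The members, the lists and the comparisons were chosen with earlier results of these data known, so none is independent evidence. Named are the 15 tRNA genes at the strongest summits, 3 on each side of the 500 bp limit, the largest group and the farthest members; other genes were named after their values were seen. Alternatives changed the window, the list, the replicate, the grouping and the background.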

Additional observations from a re-analysis of the deposited data

How the results depend on the processing

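Over 8 results, 43 alternatives were computed. The alternative with the 2754 strongest pooled peaks gave the same counts as the IDR list, so it is no separate check. The count of 57 near X tRNA genes was 54 to 62 when either replicate's strongest peaks replaced the IDR list, 47 to 66 with windows of 100 to 1000 bp, 26 with the 1377 strongest IDR peaks, 150, 167 and 151 with the whole pooled list and the whole lists of replicate 1 and replicate 2, and 5 when only genes of unique sequence were counted. The whole and shortened lists hold more and fewer peaks by construction, and wider windows cover more of X. The whole pooled, replicate 1 and replicate 2 lists covered 18.6%, 21.7% and 31.1% of X positions, and the 1377 strongest IDR peaks 1.79%. The unique-sequence genes number 55, and their share was also lower, at 9.09%; the cause was not tested. The share of X positions near a summit, 3.56%, was 4.14% outside protein-coding exons, and over the shifted positions the lowest, median and highest share of tRNA genes was 0.362%, 3.62% and 8.70%. The excess of the first part of X, 22.8 points, was 22.3 for the first of 5 parts and 3.07 (-11.9 to 27.2) for the first 2 Mb, the high bin being number 2; with either replicate alone it was 14.5 to 18.1. Single minus clustered genes gave 14.0 to 14.5 with either replicate, and 8.91 with groups counted once, with an interval (-5.20 to 20.9) that spans 0. That setting was chosen after seeing the data, as were the single-replicate fits by cluster, place and position. Intron minus intergenic was 1.05 points, and -2.11 without replicate 1 and 1.49 without replicate 2, all with intervals that span 0. X minus autosomes was 11.2 to 12.3 with either replicate. No paired analysis between groups of samples was possible because there is 1 group. The interval for tRNA genes against their nearest protein-coding starts did not use the pairing by gene. With depth unknown, how many weaker summits at tRNA genes were missed cannot be said.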

Other observations

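The X tRNA genes farthest from any IDR summit did not all lack peaks in the pooled list. Y75D11A.t2, a tRNA-Arg gene of unique sequence, was 92037 bp from the nearest IDR summit and 40899 bp from the nearest pooled summit. F12D9.t2 (tRNA-Glu) was 77582 bp from the nearest IDR summit but 5 bp from a pooled summit of rank 3034. F12D9.t3 (tRNA-Val), 73281 bp from an IDR summit, had its nearest pooled summit at 2757 bp.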
